A study of Drosophila melanogaster with 25 samples.

Results

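The genes described here are spok, phm, dib, sad and nvd, 5 enzymes of ecdysone synthesis known as Halloween genes, followed array by array over the 8 groups of larval imaginal discs of Drosophila melanogaster. They were chosen by the gene annotation of the probe sets, after an earlier look at these data in which spok was at the floor in Uey antennal discs. All 5 genes had 1 probe set each, among 18769 tested probe sets and 11982 genes with a probe set of their own. The platform annotation lists phm under its other symbol, phtm. Phm, with a capital, is a different gene and was not used.

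Disc RNA from the third larval instar was hybridised to 25 Affymetrix Drosophila arrays, with a sample on each. The wild type was sampled as antennal, leg and wing discs (3 arrays each) and as eye discs (4 arrays). The remaining groups, of 3 arrays each, were leg and wing discs carrying UAS-ey, leg discs of ato mutants that also carried UAS-ey, and antennal discs whose title reads Uey. UAS-ey drives eyeless, a Pax6-type regulator of eye fate, through the GAL4 system. The driver, the ato allele, the sex and exact age of the larvae, the number of discs per sample and the meaning of Uey were not stated in these sources. Values are log2 signals as the authors deposited them. Every array shared 1 lowest value, 6.91 (120.5 on the linear scale), called the floor here, so a gene at the floor has only an upper bound.

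Ecdysone is the steroid that times moults and metamorphosis. Insect larvae make it from dietary sterols in the prothoracic gland, part of the ring gland, which also holds the corpora allata and corpora cardiaca and lies by the brain. Imaginal discs respond to the hormone and are not known as a place where it is made. nvd encodes the oxygenase of the first step from cholesterol, and spok acts in the poorly understood steps that follow, called the black box. phm, dib and sad encode the hydroxylases that act in turn on the sterol to give ecdysone, which shd in target tissues turns into the active hormone.

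The tissue labels were checked first. Antp, the thoracic Hox gene, was at the floor throughout the antennal and eye discs, and its group means in leg and wing discs lay between 11.22 and 11.94. Dfd, a Hox gene of the head, averaged 11.24 ± 0.03 (SD, n = 3) in wild-type antennal and 9.23 ± 0.19 (SD, n = 4) in eye discs, and sat at the floor in leg and wing discs of the wild type. gl, a photoreceptor regulator, averaged 12.08 ± 0.18 (SD, n = 4) in eye discs and was at the floor in all 3 other wild-type groups. In the groups labelled with ectopic ey it averaged 8.95 ± 0.04 in antennal, 10.04 ± 0.20 in leg and 8.69 ± 0.56 in wing discs (SD, n = 3 each), and in ato-mutant UAS-ey leg discs it was at the floor. Of 10 label markers, Dfd was lower and dan, eya, so and gl higher in Uey than in wild-type antennal discs without overlap of arrays. Of all probe sets, 17.9% were lower and 17.0% higher in that way. In ato-mutant against UAS-ey leg discs, Antp, Dfd and the wing gene vg were higher without overlap, against 18.5% of all probe sets. Scr, nub, dan, danr, eya and gl were lower there, against 15.0%. ato gave 10.57, 10.60 and 10.47 in UAS-ey leg discs and 7.85, 8.43 and 10.16 in ato-mutant UAS-ey leg discs, all lower, but replicate 3 of the mutant only slightly. The ey probe set itself did not check the genotype, since it averaged 10.59 in UAS-ey and 12.04 in wild-type leg discs. Over the 25 arrays it moved with the bacterial phe control (Pearson r = 0.96, given as a description), a spike that measures no fly gene.

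nvd was at the floor on all 25 arrays, so no level of it could be set in any disc. spok and phm were high in wild-type antennal discs and on 3 of the 4 eye arrays, and at or near the floor elsewhere. Each was above the floor on 8 of the 25 arrays. sad and dib were above the floor on all 25. sad shared part of the pattern of spok and phm, and dib did so only in being lowest of the eye arrays on replicate 1.

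For spok, the log2 signals were 9.85, 9.94 and 9.96 on the wild-type antennal arrays and 10.03, 10.31 and 9.23 on eye replicates 2 to 4. Eye replicate 1 was at the floor, as were all 3 Uey antennal, all 3 wild-type leg and all 6 wing arrays. The remaining signal was slight, 7.39 on UAS-ey leg replicate 3 and 7.01 on ato-mutant UAS-ey leg replicate 3. The antennal wild type averaged 9.92 ± 0.06 (SD, n = 3). The eye group averaged 9.12 ± 1.54 (SD, n = 4), and 9.86 ± 0.56 (SD, n = 3) without replicate 1.

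phm followed spok at a lower signal on its own probe set. It reached 8.56, 8.41 and 8.39 on the wild-type antennal arrays and 8.46, 9.06 and 8.34 on eye replicates 2 to 4. It was at the floor on eye replicate 1 and on every Uey antennal, wild-type leg, ato-mutant leg and wild-type wing array. Beyond these, UAS-ey leg replicate 3 gave 7.04 and UAS-ey wing replicate 3 gave 6.92, so the UAS-ey leg array with the faint spok signal had faint phm too. The means were 8.45 ± 0.09 (SD, n = 3) in wild-type antennal discs and 8.19 ± 0.91 (SD, n = 4) in eye discs, or 8.62 ± 0.39 (SD, n = 3) without eye replicate 1.

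sad was measured in every disc. In wild-type antennal discs it gave 8.93, 8.89 and 8.97, and on the eye arrays 8.14, 9.07, 9.07 and 9.02, with replicate 1 again the low one. In Uey antennal discs it gave 7.98, 7.99 and 7.95, the lowest values of all 25 arrays. The other groups lay between these. Wild-type leg discs gave 8.19, 8.42 and 8.20, UAS-ey leg discs 8.28, 8.12 and 8.26, and ato-mutant UAS-ey leg discs 8.59, 8.40 and 8.43. Wild-type wing discs gave 8.31, 8.65 and 8.62, and UAS-ey wing discs 8.33, 8.60 and 8.46. Eye replicate 1 thus lay among the leg arrays.

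dib stayed within a narrow band on all arrays. It gave 7.82, 7.72 and 7.89 in wild-type antennal, 7.90, 7.74 and 7.72 in Uey antennal and 7.45, 7.71, 7.87 and 8.09 in eye discs. Leg discs gave 7.46, 7.70 and 7.75 in the wild type, 7.95, 7.80 and 7.74 with UAS-ey and 7.26, 7.34 and 7.47 in the ato mutant with UAS-ey. Wing discs gave 7.88, 7.22 and 7.41 in the wild type and 7.42, 7.57 and 7.52 with UAS-ey. The antennal, eye and wild-type leg arrays overlapped, and the lowest arrays were in the wild-type wing and ato-mutant leg groups.

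**Figure D1:**
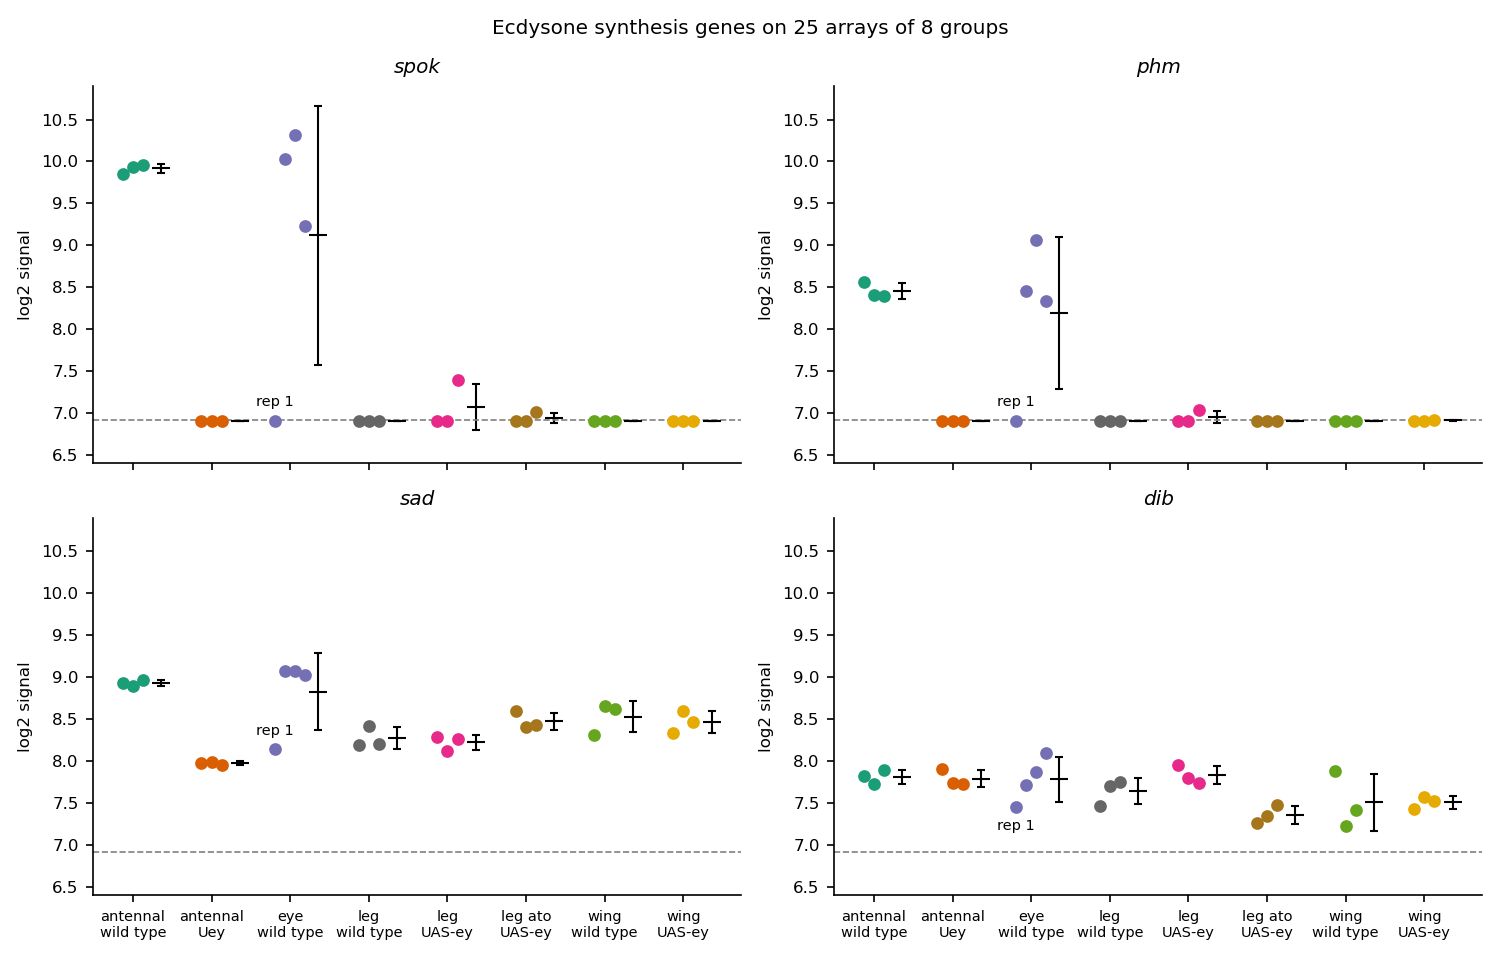
Log2 signals of spok, phm, sad and dib on each of the 25 arrays (points, coloured by group), with the mean and SD of each group (black bars); the dashed line is the floor at 6.91. spok and phm are high in wild-type antennal discs and on eye replicates 2 to 4, with eye replicate 1 at the floor, sad is lowest in Uey antennal discs, and dib is similar in both antennal groups.

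Ranked by group mean, spok and phm both ran from wild-type antennal to wild-type eye to UAS-ey leg discs, and then to groups at the floor or just above it. Neighbours in these orders overlapped in their arrays throughout, and so did all neighbours for dib. For sad the order was wild-type antennal (8.93 ± 0.04), wild-type eye (8.83 ± 0.46), wild-type wing (8.53 ± 0.19), ato-mutant UAS-ey leg (8.47 ± 0.10), UAS-ey wing (8.46 ± 0.13), wild-type leg (8.27 ± 0.13), UAS-ey leg (8.22 ± 0.09) and Uey antennal discs (7.97 ± 0.02; SD, n = 3 each and 4 for eye). Only the last pair, UAS-ey leg and Uey antennal discs, did not overlap.

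The antennal comparison asks what differs between discs labelled Uey and the wild type. Since the genes were chosen with it in view, their values here are a description with no test. spok was at least 8.02-fold lower in Uey discs, a fitted log2 difference of -3.00. phm was at least 2.91-fold lower (-1.54), and sad was 1.94-fold lower (-0.96), with no array of 1 group inside the range of the other for any of these 3. dib differed by -0.02, and nvd was at the floor in both groups. Of all probe sets, 17.9% were lower in Uey discs with no overlap of arrays and 17.0% were higher, beside the 3 of 5 genes here. In such bulk samples, fewer cells of a type and less RNA per cell cannot be told apart.

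Probe sets that went from a clear signal to none, as spok and phm did, were counted as a description. The filter and its eye steps were set after the values of spok and phm were seen. Their place in it follows from that choice. Of the 18769, 115 (0.613%) were above the floor on all wild-type and at it on all Uey antennal arrays. In 10 of these (0.0533%) the wild-type mean was at least 1 log2 unit above the floor. They were spok, phm, Hr3, PPO1, ap, eater, pinta, vis, CG31189 and 1 probe set with no gene name. On eye replicate 1, 6 of the 10 were at the floor too (spok, phm, Hr3, PPO1, ap and eater). Of these, spok, phm, Hr3 and PPO1 were above it on eye replicates 2 to 4. Hr3 is a nuclear receptor induced by ecdysone, and PPO1 and eater are made in blood cells, the haemocytes.

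Markers of other cell types moved with the antennal groups too. The summed linear signal of 6 haemocyte markers ranged from 2342 to 2498 on wild-type and from 942 to 971 on Uey arrays, where He and PPO1 were at the floor. For 4 fat body markers it was 1113 to 1219 against 663 to 696, with apolpp at the floor in Uey discs. The corpora allata and cardiaca list, 4 genes of the neighbouring gland tissue, summed to 885 to 944 against 722 to 756. Its jhamt was at the floor in Uey discs and barely above it in the wild type (6.95, 6.91 and 6.91). So these sums were lower in Uey discs, as were all 6 haemocyte markers, all 4 fat body markers and 3 of the 4 gland genes (Akh, Cyp6g2 and Lst) without overlap. Of all probe sets, 17.9% were lower in that way.

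The muscle, neuron and tracheal sums were higher in Uey discs, though not every marker was. Without overlap of arrays, 17.0% of all probe sets were higher and 17.9% lower. The 6 measured muscle markers summed to 1086 to 1101 in wild-type discs, with Act88F, fln, Mlc2 and TpnC4 at the floor, and to 25763 to 26221 in Uey discs, where all 6 were higher without overlap. The 5 neuron markers summed to 1793 to 2008 against 3139 to 3753. Of these elav and Appl were higher without overlap, nSyb and brp overlapped, and onecut was at the floor in both groups. The 3 tracheal markers summed to 9922 to 10163 against 12686 to 12857, with verm and serp higher and btl overlapping. Of the 4 glial markers, repo and Gs2 were lower and nrv2 higher without overlap, while their sums overlapped (5729 to 5966 against 5894 to 6106). The 8 salivary gland markers summed to 2658 to 2867 against 2501 to 2543, with Sgs3, Sgs5 and Sgs8 lower and Sgs1 higher without overlap, and ng1 and ng2 at the floor in both. The part of these differences, or of gland tissue left on the discs, in the values of spok, phm and sad was not tested.

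Among the wild-type eye arrays, the genes split 1 array from the other 3. In eye replicate 1, 5 probe sets lay at least 1 log2 unit below the lowest of the other eye arrays: spok, phm, CG4408, CG14797 and 1 probe set with no gene name. CG4408 gave 8.68 on replicate 1 against 10.06, 10.22 and 9.98, and CG14797 gave 8.63 against 9.67, 10.72 and 9.65. The unnamed probe set gave 6.94 against 9.21, 9.20 and 8.85. Counted the same way, replicates 2, 3 and 4 had 2, 0 and 1 probe sets below the others, none of them a synthesis gene.

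Over all probe sets, the correlation of replicate 1 with replicate 2 was 0.9975, the highest of any eye pair, and that with replicate 4 was 0.9882, the lowest. It had 1 probe set at least 1 log2 unit above the others, the salivary glue gene Sgs5bis, against 5, 12 and 17 on replicates 2 to 4. So a handful of probe sets set it apart downwards, and 2 of these 5 were synthesis genes.

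Of the marker sums, those of haemocytes and of the corpora allata and cardiaca were lowest on eye replicate 1, and the other 6 were not. In the order of replicates 1 to 4, the neuron sum was 7866, 8231, 8066 and 7800, and the glial sum 8360, 8228, 8022 and 7662. The haemocyte sum was 851, 1109, 1225 and 1114, lowest on replicate 1, where PPO1 was at the floor against 7.62, 7.93 and 7.38 and He was at the floor on all 4. The corpora allata and cardiaca sum was 789, 832, 1013 and 947, again lowest on replicate 1. In that list jhamt, the juvenile hormone methyltransferase, was above the floor only on replicate 3 (7.33), and Cyp6g2 gave 7.48, 7.57, 8.10 and 7.93. In jhamt and Cyp6g2, the corpora allata genes of the list, replicates 1 and 2 were close.

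The fat body sum was 592, 563, 628 and 12236, high on replicate 4 alone. The salivary gland sum was 16140, 3898, 6651 and 17432, the tracheal sum 10231, 10913, 9533 and 9304, and the muscle sum 856, 851, 899 and 881. The phe control gave 7.89, 8.10, 9.49 and 8.96 on the 4 arrays. Of the other prothoracic gland genes described below, 8 were above the floor on some eye array. Of these, 4 were lowest on replicate 1 by small steps, sro (7.64, 7.76, 8.35 and 8.19), GstE14 (8.06, 8.21, 8.51 and 8.54), Fdx1 and Start1. The other 4 were not, and kni was highest there (8.79, 8.68, 8.65 and 8.60). Also lowest on replicate 1 were 5 of 6 haemocyte markers and 6 of the 16 ecdysone response genes described below. Another 3 of those 16 were highest there, as were 4 of the 10 label markers (dan, danr, eya and gl), of which 0 were lowest. The share of all probe sets lowest on replicate 1 was not counted. The part of gland tissue or other cells in the eye values was not tested.

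**Figure D2:**
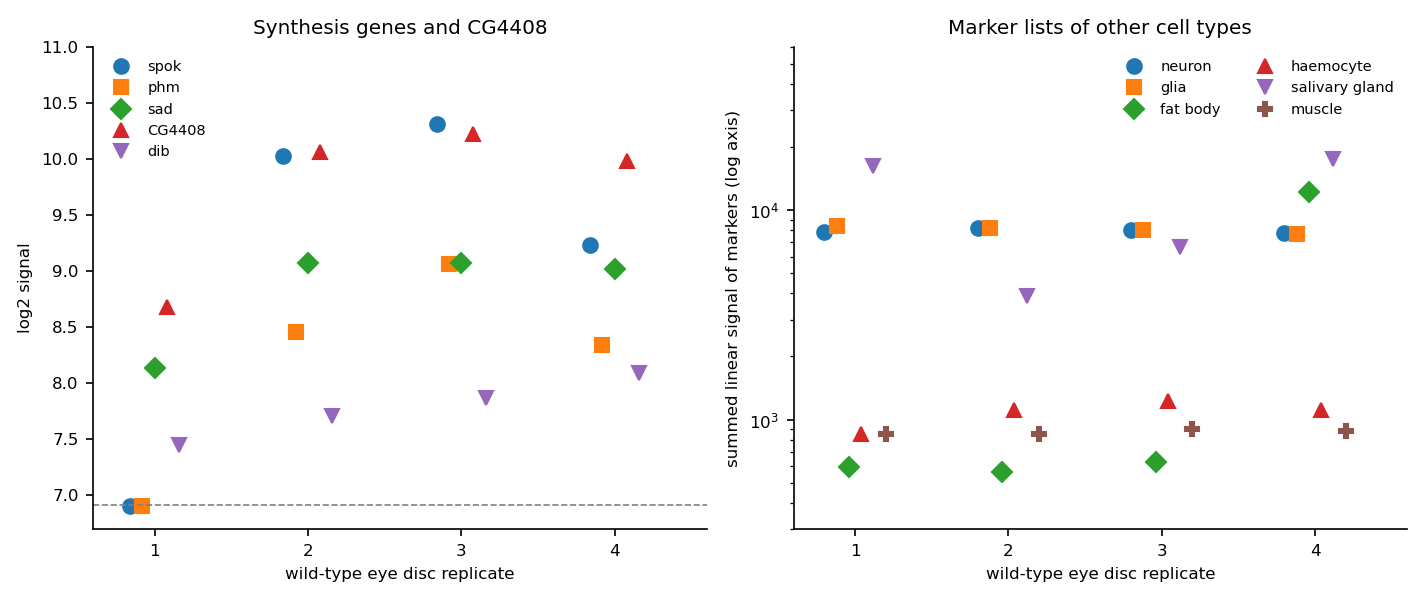
Left, log2 signals of spok, phm, sad, dib and CG4408 on the 4 wild-type eye arrays, with the floor dashed; right, summed linear signals of markers of other cell types on the same arrays (log axis). All 5 genes are lowest on replicate 1, dib by a small step, while the neuron and glia sums stay between 7662 and 8360 on all 4 arrays and the fat body sum is high on replicate 4 only.

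Because 1 eye array decided the eye means, differences are given with and without it, as descriptions. Eye minus wild-type antennal discs was -0.80 for spok with all arrays and -0.06 without replicate 1. For phm it was -0.26 and 0.17, for sad -0.10 and 0.12, and for dib -0.03 and 0.08. Without replicate 1 the eye means were thus close to the antennal ones, although replicate 4 lay below every wild-type antennal array for spok (9.23) and phm (8.34). Against wild-type leg discs, spok was at least 7.69-fold and phm at least 3.26-fold higher in eye discs without replicate 1. With all eye arrays the differences were 2.21 and 1.28 log2 units, which are no bounds because replicate 1 is itself at the floor. sad was 0.56 higher on the log2 scale, and 0.78 higher without replicate 1. Wild-type antennal discs exceeded wild-type leg discs at least 8.02-fold for spok, at least 2.91-fold for phm and by 0.66 log2 units for sad. They exceeded wild-type wing discs by 0.40 for sad, and by the same bounds as above for spok and phm. For dib the antennal mean was 0.31 above that of wild-type wing discs, but the arrays overlapped.

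Comparisons outside the antennal discs were tested with limma over all probe sets (threshold 0.05 on the Benjamini-Hochberg adjusted p). Between UAS-ey and wild-type leg discs, 0 of the 5 genes passed, and 0 had an unadjusted p under 0.05, against 19.4% of all probe sets called. The log2 differences were 0.16 (SE 0.53) for spok, 0.04 (SE 0.31) for phm, 0.19 (SE 0.15, adjusted p = 0.478) for dib and -0.05 (SE 0.17, adjusted p = 1) for sad. The spok and phm values rest on 1 UAS-ey array each, and their SEs carry the spread of the eye arrays. Without eye replicate 1 in the fit the SEs were 0.18 for spok and 0.12 for phm, and 0 of the 5 passed again. nvd, at the floor throughout, could show no difference.

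In wing discs the picture was the same, with 0 of the 5 called and 0 at an unadjusted p under 0.05, against 5.32% of all probe sets (2.94% higher and 2.38% lower). UAS-ey minus wild type was -0.06 (SE 0.17) for sad and 0 (SE 0.15) for dib. All 6 wing arrays had spok at the floor, and 5 of them phm. Neither could be seen to fall in leg or wing discs, since the wild type was already at the floor there.

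Between ato-mutant UAS-ey and UAS-ey leg discs, 1 of the 5 genes passed, against 23.5% of all probe sets (9.03% lower). This was dib, lower in the ato mutant by 0.47 on the log2 scale, or 1.39-fold (SE 0.15, adjusted p = 0.0292), with no overlap of arrays, as for 15.0% of all probe sets. The call was lost without UAS-ey replicate 1 (-0.41, adjusted p = 0.11) or 2 (-0.49, 0.0656), and without ato-mutant replicate 1 (-0.42, 0.0959) or 2 (-0.46, 0.0708). It held without ato-mutant replicate 3, the array with the highest ato signal of its group (-0.53, adjusted p = 0.0322). With the phe control as a covariate it was lost (-0.49, SE 0.30, adjusted p = 0.645).

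sad differed by 0.25 in the other direction (SE 0.17, adjusted p = 0.353), and its ato-mutant arrays lay above the UAS-ey arrays without overlap, as did 18.5% of all probe sets. Its SE also carries the low eye array. Without eye replicate 1 it was 0.09 and the adjusted p 0.0398. With the phe control as a covariate the difference turned to -0.39 (adjusted p = 0.776). phe itself separated the groups, at 10.53 to 11.15 in ato-mutant and 8.37 to 8.65 in UAS-ey leg discs. The marker sums of the 2 groups differed as well. The corpora allata and cardiaca sum was 1361 to 1711 in ato-mutant and 706 to 790 in UAS-ey leg discs, carried by Lst (9.89 against 7.26, a difference of 2.63, adjusted p = 5.48e-10). Akh of the same list was lower in the ato mutant (7.84 against 8.14, adjusted p = 0.0161). The fat body sum was 32508 to 45437 against 2123 to 9936, the haemocyte sum 3123 to 18922 against 1320 to 1474 and the salivary gland sum 6816 to 24291 against 2465 to 3388. Muscle (2260 to 2404 against 984 to 1052) and glia (8569 to 9306 against 6205 to 6906) were also higher, neurons lower (1748 to 2452 against 3118 to 3535), and the tracheal sums overlapped. Their part in the values of dib and sad was not tested.

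Across arrays, spok and phm ran together (Pearson r = 0.991 over 25 arrays), and sad less so (0.831 with spok and 0.833 with phm). dib correlated with spok at 0.462 and with sad at 0.131. These values are descriptions with no p, since the arrays form a cluster at the floor and a cluster above it and share normalization.

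Of 2963 probe sets with a range of at least 1 log2 unit, CG4408 was most like the mean profile of spok, phm, dib and sad, with Pearson r = 0.936 over the 25 arrays. It gave 9.80, 9.82 and 9.93 in wild-type and 8.12, 8.21 and 8.06 in Uey antennal discs. Its eye values are given above, and the other groups averaged between 7.96 ± 0.04 (UAS-ey leg) and 8.63 ± 0.15 (wild-type leg; SD, n = 3). CG4408 sat high on the arrays where spok did, including the split among the eye arrays, but was above the floor everywhere. It was picked by likeness over these same arrays, so the match follows from that choice.

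A gap followed CG4408. Next came CG12929 (0.77), CG7080 (0.756), PMCA, a calcium pump of the plasma membrane (0.75), NLaz, a lipocalin (0.739), CG13041 (0.736), Skel (0.715), Epac (0.714), CG4613 (0.71), Rpt3R (0.703), Ance, a peptidase (0.701), and lola, a transcription factor (0.692). With spok alone, the 6 highest were CG4408 (0.929), CG7080 (0.776), CG12929 (0.759), PMCA (0.754), NLaz (0.75) and CG13041 (0.748). Among probe sets with no gene name the best reached 0.717.

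PMCA, for example, averaged 9.54 ± 0.05 in wild-type and 8.74 ± 0.03 in Uey antennal discs (SD, n = 3 each), and gave 9.26, 9.30, 9.71 and 9.65 on the eye arrays. NLaz averaged 8.23 ± 0.13 and 7.69 ± 0.05 in the same antennal groups, gave 7.58, 7.90, 8.17 and 7.96 on the eye arrays, and wild-type leg discs had it at the floor. Both were lowest on eye replicate 1, by a smaller step than CG4408, which for PMCA was slight. CG13041, Epac, Ance and lola of the same ranking were not lowest there.

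**Figure D3:**
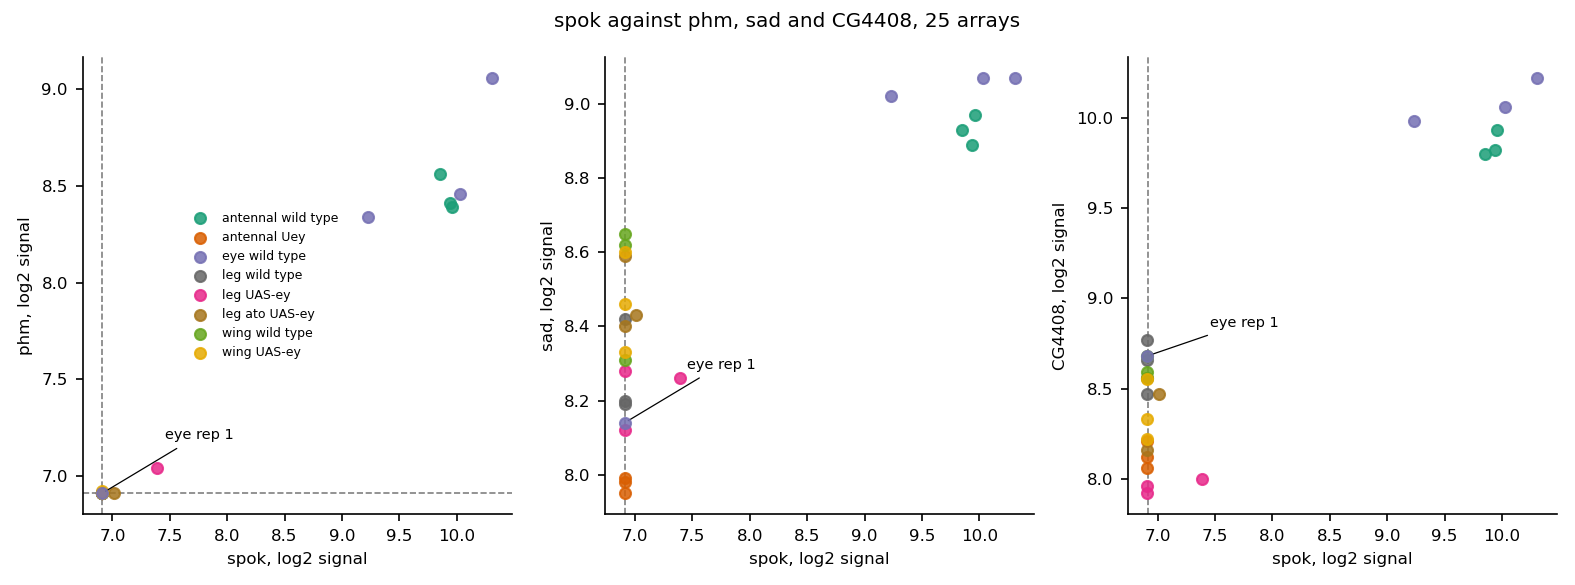
Log2 signals of phm (left), sad (middle) and CG4408 (right) against spok, 1 point per array, coloured by group, with the floor dashed. Wild-type antennal arrays and eye replicates 2 to 4 lie together at high spok, and eye replicate 1 lies at the floor of spok with the arrays of other discs.

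Other genes of the prothoracic gland were compared between the antennal groups next. Of the 12 listed, 11 had a probe set of their own (dare had none) and 9 were above the floor on some array. Of the 11, 2 passed the test, both lower in Uey discs, against 11.5% of all probe sets called in that comparison (4.46% lower). kni, a nuclear receptor-like regulator, fell from 10.82 to 10.39, by 0.43 (SE 0.09, adjusted p = 0.00328). Start1, a sterol-binding START-domain protein, fell from 10.65 to 10.38, by 0.27 (SE 0.08, adjusted p = 0.0326), a call lost when any 1 antennal array was left out (adjusted p from 0.0505 to 0.108).

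The rest of that list did not pass. The enzyme genes sro, which acts in the black box, and GstE14, a glutathione transferase needed for sterol use, differed by -0.04 and -0.27 (adjusted p = 0.274). Npc1a, a sterol transporter, differed by -0.14, the zinc-finger regulator mld by 0.01, Cyp6t3 by -0.07, Fdx1, a ferredoxin that feeds electrons to mitochondrial hydroxylases, by 0.31 (adjusted p = 0.0766). Of the 2 vvl probe sets, the one with the higher mean over all arrays was at the floor in both antennal groups. The other averaged 7.54 in Uey and 7.52 in wild-type discs and did not pass. ouib, a regulator of spok, and tor, the receptor of the brain peptide PTTH, were at the floor on all arrays. Of the 11 genes, GstE14, Npc1a, Start1 and kni were lower and Fdx1 higher without overlap of arrays. Of all probe sets, 17.9% were lower and 17.0% higher in that way. For 8 genes the probe set with the highest mean was above the floor in either antennal group. Their median was -0.11, against -0.03 over the 13817 probe sets of the array above the floor there.

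Of 5 genes that import, activate or clear the hormone, or stand in for spok, 1 passed. Of all probe sets, 11.5% were called in the antennal comparison (4.46% lower). Oatp74D, the ecdysone importer, fell from 10.87 to 10.35 in Uey antennal discs, by 0.53 (SE 0.10, adjusted p = 0.00125). shd differed by 0.02, Cyp18a1, which inactivates the hormone, by 0.11 and Eo, ecdysone oxidase, by -0.15 (adjusted p = 0.183). spo, the paralogue of spok used in embryos and ovary, was at the floor on all arrays. Of the 4 genes of the corpora allata and cardiaca, 2 passed, against the same share of all probe sets. Akh, the adipokinetic hormone, fell from 8.69 to 8.28, by 0.41 (SE 0.08, adjusted p = 0.00315). Cyp6g2 fell from 7.92 to 7.53, by 0.38 (SE 0.12, adjusted p = 0.0431), and Lst (-0.17, adjusted p = 0.685) and jhamt (-0.01) did not pass. The call for Cyp6g2 was lost when any 1 antennal array was left out (adjusted p from 0.0745 to 0.135).

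Genes that respond to ecdysone changed in both directions. Of 19 listed, 16 had a probe set of their own, and 8 of the 16 passed in Uey antennal discs, 2 higher and 6 lower, against 7.04% and 4.46% of all probe sets. ftz-f1, a nuclear receptor of the low-hormone interval, rose from 9.71 to 11.51, by 1.80 (SE 0.30, adjusted p = 0.000432), and usp, partner of the ecdysone receptor, rose by 0.28 (adjusted p = 0.0344). Blimp-1, a repressor induced by the hormone, fell from 10.38 to 8.69, a log2 difference of -1.69 (SE 0.38, adjusted p = 0.00577). Hr3 fell from 8.01 to the floor (fitted log2 difference -1.10, adjusted p = 0.0353). Hr4 fell by 0.89 (adjusted p = 0.0435), Eip71CD by 0.45 (0.000196), Eip63E by 0.45 (0.000988) and Eip78C by 0.41 (0.00642).

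The calls for usp, Hr3 and Hr4 were lost when any 1 antennal array was left out, which leaves 5 of the 16. The receptor gene EcR differed by 0.64 (adjusted p = 0.0641), and br, Hr39, ImpE1, ImpE2, ImpE3, ImpL1 and ImpL2 did not pass on the probe set that stood for each, with differences from -0.87 to 0.30. The probe sets of ImpE1 disagreed: the brightest gave -0.58 and did not pass, but 2 dimmer ones did (-0.99, adjusted p = 0.0323, and -1.16, adjusted p = 0.000671). Of the 3 Hr4 probe sets only the brightest passed. The median of the 16 was -0.43, against 0 over all probe sets. On the eye arrays Hr3 gave the floor on replicate 1, as spok did, and 7.32, 8.03 and 7.06 on replicates 2 to 4. Unlike spok, it stayed close to the floor on replicate 4. It was also above the floor on arrays with spok at the floor, such as ato-mutant UAS-ey leg replicates 1 and 2 (7.54 and 8.18).

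**Figure D4:**
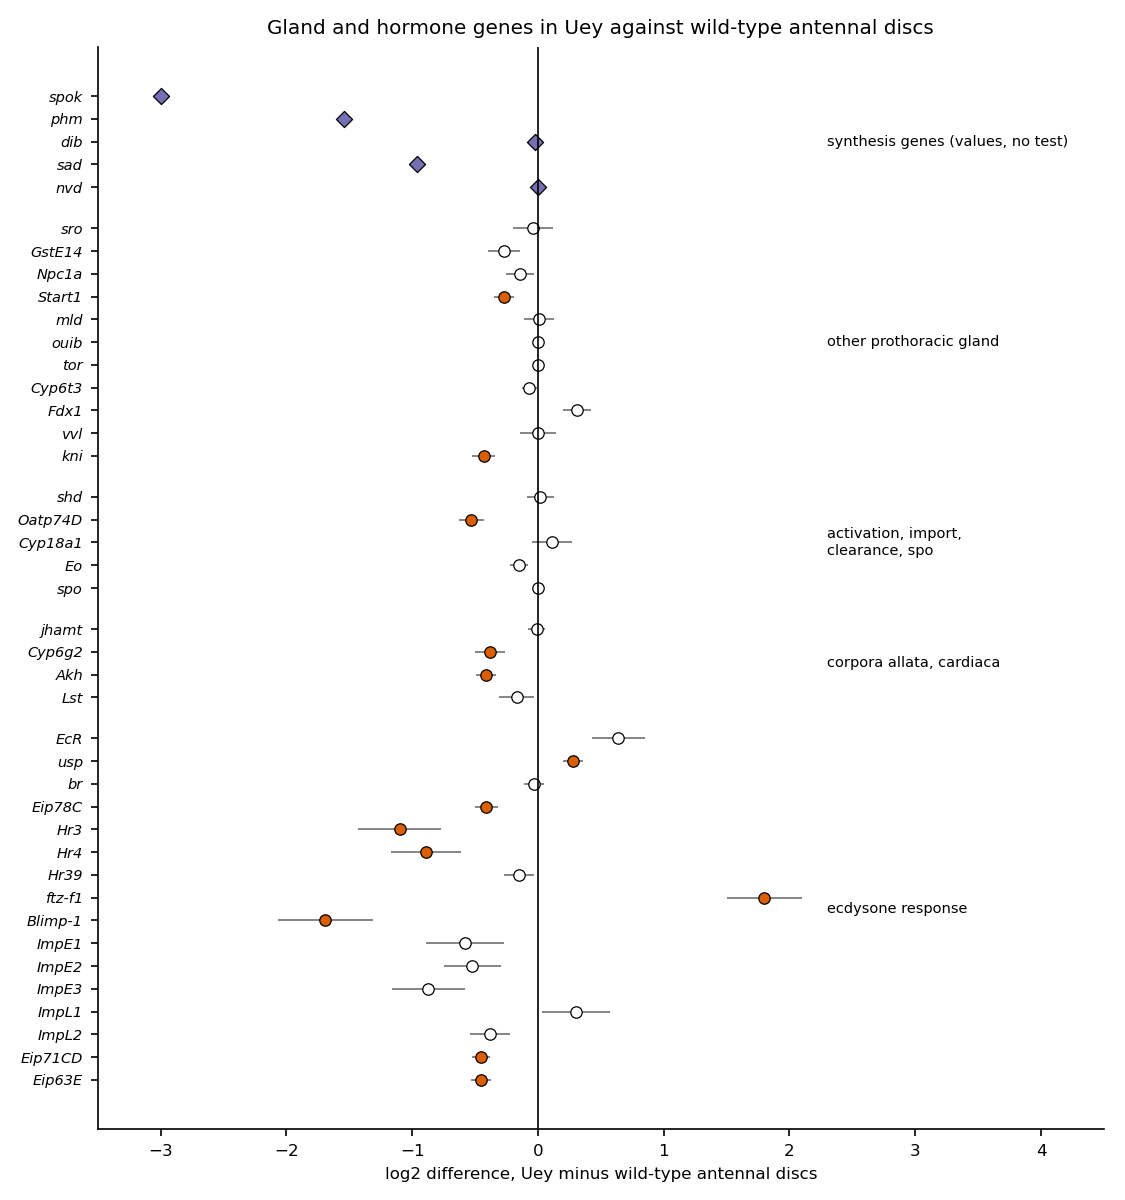
Log2 difference, Uey minus wild-type antennal discs, for the synthesis genes (diamonds, values with no test) and for 4 lists of gland and hormone genes (circles, bars show SE; filled where the limma adjusted p was below 0.05). spok, phm and sad lie at -3.00, -1.54 and -0.96, and dib lies at -0.02. The other prothoracic gland genes lie between -0.43 (kni) and 0.31 (Fdx1), with ouib, tor and the vvl probe set shown at the floor in both groups.

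In leg and wing discs response genes passed the test where no synthesis gene did, without a test of that contrast. spok, phm and nvd were at the floor in the wild type of both discs, so none of them could pass as lower. In UAS-ey leg discs 8 of the 16 passed, 1 higher and 7 lower (9.02% and 10.3% of all probe sets). ftz-f1 rose by 2.01 (adjusted p = 0.000132). The others were lower: Blimp-1 (-1.94, adjusted p = 0.00141), ImpE2 (-1.69, 4.36e-05), ImpE3 (-1.46, 0.00157), Hr4 (-0.90, 0.0282), Eip63E (-0.55, 0.00013), Hr39 (-0.38, 0.0369) and Eip71CD (-0.31, 0.00328). Probe sets other than the brightest also passed for ImpE1 (-0.91 and -0.80), Hr39 (-0.38) and br (-0.69), and 1 of Hr4 passed in the opposite direction (0.28, adjusted p = 0.0296). The dimmer of 2 Cyp18a1 probe sets also passed in leg discs (0.59, adjusted p = 0.049). In UAS-ey wing discs 2 passed, ftz-f1 (1.56, adjusted p = 0.00334) and Eip63E (-0.45, adjusted p = 0.00227). Of all probe sets, 2.94% were called higher and 2.38% lower there. Among these leg and wing arrays spok was above the floor on 1, at 7.39.

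In ato-mutant against UAS-ey leg discs, a comparison that shares the UAS-ey arrays with the first, 7 of 16 passed and all 7 were higher (14.5% of all probe sets). They were Blimp-1 (1.41, adjusted p = 0.0119), ImpE2 (1.24, 0.000566), ImpL1 (1.08, 0.00743), ImpE3 (0.84, 0.0452), Eip63E (0.70, 9.89e-06), ImpL2 (0.62, 0.0104) and usp (0.26, 0.034). Dimmer probe sets of br (0.75), Hr39 (0.35) and Hr4 (-0.25) passed too. Of the 11 other prothoracic gland genes, 1 passed in UAS-ey leg discs, against 19.4% of all probe sets. This was kni, lower by 0.36 (adjusted p = 0.00885), and a dimmer mld probe set also passed there (-0.33, adjusted p = 0.0394). In the ato mutant 2 of the 11 passed, against 23.5% of all probe sets. kni was 0.48 higher there (adjusted p = 0.000868) and vvl was lower (-0.43, adjusted p = 0.0345). None passed in wing discs, where 0 had an unadjusted p under 0.05. Of the import and clearance genes and those of the corpora allata and cardiaca, Eo and Lst passed in UAS-ey leg discs. Both were lower (-0.23, adjusted p = 0.0196, and -0.77, adjusted p = 0.000882). In the ato mutant shd (0.32, adjusted p = 0.0388) and Oatp74D (0.28, adjusted p = 0.0495) were higher, but the dimmer shd probe set was lower (-0.21, adjusted p = 0.0224). Lst and Akh there are given above.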

How the data were processed

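The deposited values are log2 signals, 1 per probe set and array. Per the labels' protocols, Trizol RNA (100 ng per sample) was amplified in 2 cycles and labelled as cRNA. No source names the summary method, software or scaling. The labels call the samples biological triplicates. On each array 25.3% to 33.9% of probe sets were at the floor. Array medians lay between 7.53 and 7.86, and the deposited scaling was kept. The number of arrays limits the precision.

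Of 18952 probe sets, 183 controls were left out. Groups were compared with limma 3.58.1 in R 4.3.3 (group means on all 25 arrays, eBayes, 17 residual degrees of freedom), two-sided, with Benjamini-Hochberg adjustment over 18769 probe sets. SE is the standard error of a log2 difference. A fold against a group wholly at the floor is given as a bound. Only probe sets annotated to 1 gene were named, and of several for a gene the one with the highest mean stood for it. The fit was checked on simulated data.

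The genes and lists were chosen with earlier results of these data known. The rule named the synthesis genes, every list gene that passed in a comparison that was counted, each gene of lists of 5 or fewer, and the 12 genes most like the mean profile and 6 most like spok, by Pearson r. CG14797, the unnamed eye probe set, the genes that went from a signal to the floor and Sgs5bis were chosen after their values were seen, and so were the fits without eye replicate 1. Alternatives were other normalizations, filters, variance priors, the phe covariate, a replicate block, fits on the compared groups and leaving out single arrays.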

Additional observations from a re-analysis of the deposited data

Results flagged for a closer look

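Within the eye discs, the only group of 4, an array was set apart when its gap to the nearest other array divided by the group's range exceeded Dixon's critical value for 4 samples. Chance alone gives this in about 5% of groups, and 32 probe sets were examined. sad on wild-type eye replicate 1, at 8.14, had a gap of 0.941 of the range. CG4408 on the same array, at 8.68, had a gap of 0.843. It was named for its likeness to the synthesis genes over these same arrays, so its gap follows from that choice. jhamt on eye replicate 3, at 7.33, had a gap of 1.0, since the other 3 arrays were at the floor.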

How the results depend on the processing

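In Uey against wild-type antennal discs, the fitted log2 difference of spok was -3.05 with quantile normalization and -2.52 with the phe covariate, against -3.00. That of phm was -1.62 and -1.21, and that of sad was -0.78 with the phe covariate. Leaving out single arrays gave -3.04 to -2.98 for spok, -1.57 to -1.48 for phm, -0.98 to -0.94 for sad and -0.08 to 0.02 for dib. The ecdysone response genes called were 15 of 16 (4 higher) when only the antennal arrays were fitted, 5 with the phe covariate and 5 to 7 when single arrays were left out. Other prothoracic gland genes called were 3 on the antennal arrays alone (Fdx1, higher, joins at adjusted p = 0.00963), 1 with the phe covariate and 1 to 2 when single arrays were left out. Probe sets called rose from 2160 to 4114 when only the antennal arrays were fitted. Synthesis genes called between ato-mutant and UAS-ey leg discs were 0 with the phe covariate and 0 to 2 when single arrays were left out (2 without eye replicate 1). With median centring they were 2, where nvd joins dib because centring moves values at the floor (-0.15 for nvd). Apart from that, the causes were not tested. In leg and wing discs 0 of the 5 were called under every alternative run.

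The replicate number as a block left 2 other prothoracic gland genes, 7 ecdysone response genes and 2148 probe sets called, and ended the calls of Hr4 (adjusted p = 0.0504) and Cyp6g2 (adjusted p = 0.0553). Deviations of same-numbered arrays correlated at -0.41 to -0.26 in antennal, -0.18 to 0.16 in leg, -0.14 to 0.35 in wing and 0.02 to 0.14 in ato-mutant comparisons. In none were all 3 pairs above 0.1, so the numbers were not taken as pairs. The floor limits what can be seen of spok, phm and nvd: no fall from it can be measured.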
